A study of Rattus norvegicus with 44 samples.

Results

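Metallothioneins are small, cysteine-rich proteins that bind zinc and copper and buffer these ions inside cells. Mt1 and Mt2A are made mainly by astrocytes and other glia in the brain and are known for their induction by metals, through the zinc-sensing factor MTF1, and by glucocorticoids and injury. Mt3 is the brain form, also described in neurons of zinc-rich circuits, and is much less inducible. The transcripts of these 3 genes were followed in the dentate gyrus (DG) of 44 male F344 rats, 1 library per rat, out of 18347 gene identifiers in the deposited table. They were taken by symbol, and the family was selected on measured values of these same libraries, so the differences between groups that follow are given as description and not as tests. All 3 passed the filter on low values (a mean normalized value of at least 5), as did 15598 genes in all. The related symbols Mt1m and Mt4 are described where they touch the 3 members.

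YNG rats (n = 10) were 6 months old and received vehicle. The older rats carry an age of 12 months in the labels, which the methods give as the age when treatment began, and received vehicle (AV, n = 12), the BCL-2 family inhibitor ABT-263 (AA, n = 11) or the kinase inhibitor dasatinib with the flavonoid quercetin (D+Q, ADQ, n = 11) in repeated rounds by oral gavage. Tissue was the DG of 1 hemisphere of each rat. Both treatments are used as senolytics, agents meant to remove senescent cells. There was no treated young group, so treatment was compared in older rats only. The deposited labels state only the age, and the treatment came from the authors' attribute table, matched by rat name. The number of reads, estimated from the value of 1 read in each library, lay between 10166556 and 24328425 per rat. Of the listed granule cell markers, Prox1, the factor that fixes granule cell identity, had a median of 2592 and a lowest value of 608.7, whereas Tdo2 and Lct were at or near 0. Rats 3989 (AV) and 4107 (AA) had the 2 lowest levels of granule cell markers and the 2 highest levels of markers of neighbouring CA1 tissue, so values without them are given. The rats also form 2 ranges of rat numbers, called lower-numbered here (rats up to 4011 with V1 to V6, 22 rats) and higher-numbered (22 rats). The labels name no batch, and what distinguishes the ranges cannot be told apart from the animals themselves. Pooled tissue also cannot separate fewer cells of a type from less RNA per cell.

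Mt1, Mt2A, Mt3 and Mt4 lie next to each other within 39.9 kb of rat chromosome 19 in the RefSeq annotation of GRCr8. Mt1m is annotated there as a pseudogene on chromosome 20. The 250 bases upstream of each member are printed because they hold the sequence features that the members share and that the choice of the genes did not use. The coordinates are chr19:10832976-10833225 for Mt1, chr19:10838709-10838958 for Mt2A and chr19:10856081-10856330 for Mt3, all on the minus strand of GRCr8 (RefSeq). Sequences run 5′ to 3′ along the gene strand and end just before the annotated start. Capitals mark the core of the metal response element, the binding motif of MTF1, searched as TGCACNC and TGCGCNC on both strands.
Mt1: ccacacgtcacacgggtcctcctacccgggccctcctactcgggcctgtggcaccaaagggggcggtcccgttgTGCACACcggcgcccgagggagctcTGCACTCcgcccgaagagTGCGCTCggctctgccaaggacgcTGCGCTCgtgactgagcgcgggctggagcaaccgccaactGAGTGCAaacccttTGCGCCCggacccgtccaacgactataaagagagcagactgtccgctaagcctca
Mt2A: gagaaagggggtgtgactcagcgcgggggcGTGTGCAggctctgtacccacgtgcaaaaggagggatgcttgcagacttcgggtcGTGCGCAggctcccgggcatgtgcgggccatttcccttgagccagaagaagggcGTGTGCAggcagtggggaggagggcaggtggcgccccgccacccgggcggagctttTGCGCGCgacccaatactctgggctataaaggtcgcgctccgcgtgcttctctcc
Mt3: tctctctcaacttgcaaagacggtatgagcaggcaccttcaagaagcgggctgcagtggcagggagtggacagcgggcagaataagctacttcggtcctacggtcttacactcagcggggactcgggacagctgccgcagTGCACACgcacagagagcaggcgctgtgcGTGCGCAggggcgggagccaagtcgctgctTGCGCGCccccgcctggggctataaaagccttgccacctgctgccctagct
Mt1 had 6 matches, Mt2A 4 and Mt3 3, and no matches overlapped. Among 33469 RefSeq promoters cut to the same length, 20.6% held at least 1 match, 1.17% held 3 or more, 0.266% held 4 or more and 0.0269% (9 promoters) held 6 or more. A TATA box (TATAAA) stood 31 or 32 bases before the start in each of the 3, against a share of 12.9% of all promoters with that motif. The core of the antioxidant response element (TGACNNNGC) matched once in Mt1 and once in Mt2A and did not match in Mt3, and 10.1% of all promoters held it. ACGTG, the core of hypoxia response elements, matched once in Mt1 and on both strands of 1 palindrome in Mt2A, against 16.6% of all promoters. Neither the STAT motif TTCNNNGAA (7.67% of promoters) nor AGAACA, which forms one side of glucocorticoid response elements (17.5%), matched in these windows. A match is a description of letters and not evidence of binding.

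**Figure D1:**
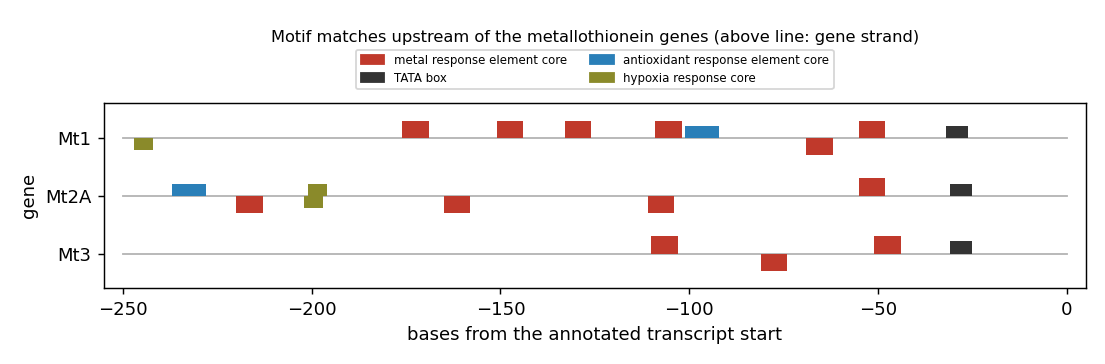
Motif matches in the 250 bases before the annotated start of Mt1, Mt2A and Mt3, with distance from the start in bases on the horizontal axis, boxes above each line for the gene strand and below it for the other strand. The metal response element core (red) occurs 6, 4 and 3 times, and each gene has 1 TATA box (black).

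Mt1 was lower in the treated older rats than in either vehicle group, and the vehicle-treated older rats were spread around the young ones. The normalized values of Mt1 ran from 116 to 226 in YNG (median 167.7), from 61.2 to 418.5 in AV (median 127.5), from 50.3 to 149.7 in AA (median 102.7) and from 61.4 to 152.8 in ADQ (median 92.2). The groups overlapped in every comparison. Of the 12 AV rats, 5 lay above the highest of the 22 treated rats, and 7 of the 10 YNG rats did. In the order of the medians, YNG was above AV, AV above AA and AA above ADQ, and each of these neighbours differed by less than the SD within the AV group (115.1) or, for AA and ADQ, within either group (32.5 and 27.02). The mean in AA was 99.4 ± 32.5 (SD, n = 11) and in ADQ 98.2 ± 27.02 (SD, n = 11), against 171.5 ± 42.2 (YNG; SD, n = 10) and 188.1 ± 115.1 (AV; SD, n = 12). On the scale of log2(value + 1), used for all differences below, AA minus YNG was -0.82 ± 0.19 (SE) and ADQ minus YNG was -0.81 ± 0.16 (SE), a change of -43.2% and -42.8%. Against AV the differences were -0.76 ± 0.28 (SE) for AA and -0.75 ± 0.27 (SE) for ADQ. AV and YNG differed by -0.06 ± 0.27 (SE), and AA and ADQ by -0.01 ± 0.19 (SE), both less than their standard errors.

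Mt2A was spread over a wide range in AV, with lower medians under both treatments. Its normalized values ran from 161.2 to 368.9 in YNG (median 267), from 176.6 to 1185 in AV (median 261.3), from 107.4 to 299.4 in AA (median 166.6) and from 126.7 to 290.3 in ADQ (median 183.5). The lowest AV rat stood near the median of both treated groups, and 5 of 12 AV rats were above all 22 treated rats, as were 4 of 10 YNG rats. Mt2A in AA minus AV was -0.81 ± 0.27 (SE, log2), and ADQ minus AV was -0.78 ± 0.26. Relative to YNG, the differences were -0.54 ± 0.18 for AA and -0.51 ± 0.17 for ADQ. The mean of AV was higher than that of YNG (377.1 ± 289.8 SD, n = 12, against 269.6 ± 74.7 SD, n = 10), yet the medians were almost equal, and the log2 difference was 0.27 ± 0.28 (SE). AA and ADQ differed by -0.03 ± 0.16.

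The reads of Mt2A were not separable from those of Mt1m in this table. Expressed in reads of its own library, Mt2A was a whole number (within 0.05 of a read) in 5 of 44 rats and Mt1m in 5 of 44, but their sum was whole in 44 of 44. By the same measure Mt3 was whole in 43 rats and Mt1 in 28, while Mt1 plus Mt2A was whole in 6. Mt2A alone and Mt1m alone are therefore uncertain, and Mt1 is uncertain in the rats where it is not whole. The sum of the Mt2A and Mt1m rows ran from 365.9 to 884.7 in YNG (median 579.5), from 282.8 to 2275 in AV (median 592.1), from 226.7 to 579.8 in AA (median 400.2) and from 237.7 to 682 in ADQ (median 372.5). The sum placed 3 of 12 AV rats and 3 of 10 YNG rats above all treated rats. Its log2 differences were -0.77 ± 0.29 (SE) for AA minus AV, -0.77 ± 0.28 for ADQ minus AV, and -0.59 with an SE of 0.19 for AA and 0.18 for ADQ against YNG. The direction of the Mt2A row was the same as that of the sum in each of these 4 comparisons.

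Mt3, the brain form, had the order YNG, AV, AA, ADQ from high to low, with wide ranges. Its normalized values ran from 2078 to 9639 in YNG (median 5853), from 1355 to 9978 in AV (median 4466), from 1339 to 6883 in AA (median 3417) and from 1158 to 4352 in ADQ (median 2663). Of the YNG rats 8 of 10 were above the highest ADQ rat, as were 6 of 12 AV rats, while AA overlapped widely with every group. Differences from YNG were -0.61 ± 0.34 (SE, log2) for AV, -0.92 ± 0.32 for AA and -1.02 ± 0.28 for ADQ. Against AV, Mt3 in AA differed by -0.31 ± 0.35 and in ADQ by -0.41 ± 0.32. Neighbouring medians differed by less than the SD of either group of the pair, namely 2636 (YNG), 2457 (AV), 1707 (AA) and 1046 (ADQ).

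**Figure D2:**
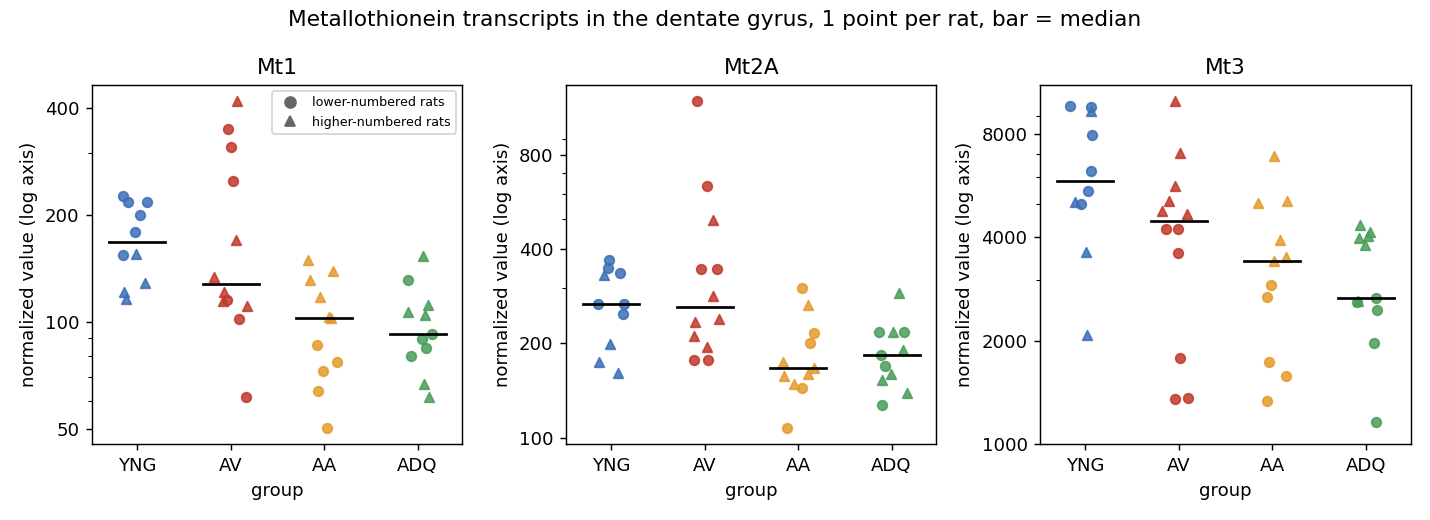
Normalized values of Mt1, Mt2A and Mt3 (log axis) in the 4 groups, with 1 point per rat, circles for lower-numbered and triangles for higher-numbered rats, and a bar at each median. For Mt1 and Mt2A, 5 of 12 AV rats lie above all 22 treated rats, and the highest ADQ value of Mt3 is 4352.

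In a limma fit of all 15598 genes and all 44 rats, in which the same differences chose the members, the number of members past an unadjusted p of 0.05 was 0 for AV against YNG, where 21.3% of all genes passed (2.35% after Benjamini-Hochberg adjustment, by which no member passed either). All 3 members were called lower in AA than in YNG (background 14.1% lower and 26.6% in either direction), 1 of them, Mt1, also after adjustment (2.31% lower, 3.85% in either direction). In ADQ against YNG, 3 members were called lower (14.6% lower, 28.1% in either direction), and Mt1 and Mt3 passed adjustment (3.96% and 7.08%). Mt1 and Mt2A were called lower in AA than in AV (3.1% lower, 4.51% in either direction) and in ADQ than in AV (5.9% and 9.32%), whereas Mt3 was not. After adjustment limma called 0% of all genes in each comparison between older groups, although 703 genes passed unadjusted between AA and AV, 1454 between ADQ and AV and 707 between the treated groups. Between AA and ADQ no member was called (background 4.53%). The comparisons with YNG share the YNG rats and those with AV share the AV rats, so they are not independent of each other. Nothing about the family is read from these counts, nor from how often a call was kept below, since the same differences chose the members. Leaving out each rat in turn, Mt1 stayed called in all 44 fits of its 4 comparisons and Mt2A in all 44 against AV. Mt2A against YNG lost its call in 1 of 44 fits for AA (without 3984) and in 6 of 44 for ADQ (without V1, V2, V6, V12, 4004 or 4074). Mt3 in AV against YNG became called in 12 of 44 fits, when V10, V11, 3983, 3988, 4005, 4036 or any of 4566, 4567, 4568, 4569, 4571 and 4572 was left out. Adjusted calls were kept in fewer fits, that of Mt1 in 26 of 44 for AA and in 35 for ADQ, and that of Mt3 in 32 for ADQ. All 3 were lost without any of V1, V2, V3, V4, V9 and V12. That of Mt1 was also lost for AA without 3983, 3984, 3988, 3996, 4007, 4031, 4032, 4035, 4069, 4077, 4107 or 4110 and for ADQ without 4006, 4007 or 4074, and that of Mt3 for ADQ without 3994, 4004, 4005, 4006, 4007 or 4074. Mt3 gained an adjusted call for AA in 3 of 44 fits (without V10, V11 or 4036). Without rats 3989 and 4107, the same member calls at the unadjusted threshold were made in all 6 comparisons.

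The comparison with young rats differed between the 2 ranges of rat numbers. Among lower-numbered rats, every AV, AA and ADQ rat had less Mt3 than every YNG rat, with differences of -1.53 ± 0.37 (SE, log2), -1.85 ± 0.28 and -1.77 ± 0.28. Mt3 in these YNG rats ran from 4997 to 9639 (n = 6), and in lower-numbered older rats from 1355 to 4240 in AV, from 1339 to 2899 in AA and from 1158 to 2663 in ADQ. Among higher-numbered rats, the Mt3 differences from YNG were 0.46 ± 0.48 for AV, 0.052 ± 0.48 for AA and -0.21 ± 0.47 for ADQ, each smaller than its SE. Mt1 in AV differed from YNG by -0.26 ± 0.42 in lower-numbered and 0.27 ± 0.31 in higher-numbered rats, a change of sign within the SE. Mt1 in AA was at -1.51 ± 0.16 from YNG in lower-numbered rats with no overlap and -0.079 ± 0.13 in higher-numbered rats. Mt1 in ADQ was below YNG by -1.06 ± 0.15 with no overlap and by -0.43 ± 0.22. For Mt2A the 2 values were -0.73 ± 0.27 and -0.24 ± 0.26 in AA, and -0.75 ± 0.17 (no overlap) and -0.16 ± 0.28 in ADQ. With the number range as a covariate in the fit of all rats, the member calls were as before, and Mt3 was also called lower in AV than in YNG. Among all genes tested in lower-numbered rats, 3.25% lay below YNG without overlap in AV, 2.97% in AA and 4.1% in ADQ.

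Against vehicle in older rats, the direction of all 3 members was the same in both ranges. Among higher-numbered rats, however, AV rats were numbered 4566 to 4572 and treated rats 4031 to 4110. Treatment and rat number therefore cannot be told apart where treated rats are set against AV in that range. ADQ minus AV for Mt1 was -0.80 ± 0.43 (SE, log2) in lower-numbered and -0.70 ± 0.36 in higher-numbered rats, and for Mt2A -1.07 ± 0.46 and -0.50 ± 0.25. AA minus AV for Mt1 was -1.24 ± 0.43 and -0.35 ± 0.31, and for Mt2A -1.04 ± 0.50 and -0.58 ± 0.23. Mt3 in ADQ was -0.23 ± 0.40 from AV in lower-numbered rats. Among higher-numbered rats it was -0.66 ± 0.20, where all 6 ADQ rats (2608 to 4352) lay below all 6 AV rats (4692 to 9978), as did 0.532% of all genes tested. AA and ADQ differed in Mt1 in opposite ways, by -0.44 ± 0.18 in lower-numbered and 0.35 ± 0.22 in higher-numbered rats, which cancelled in the pooled value.

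**Figure D3:**
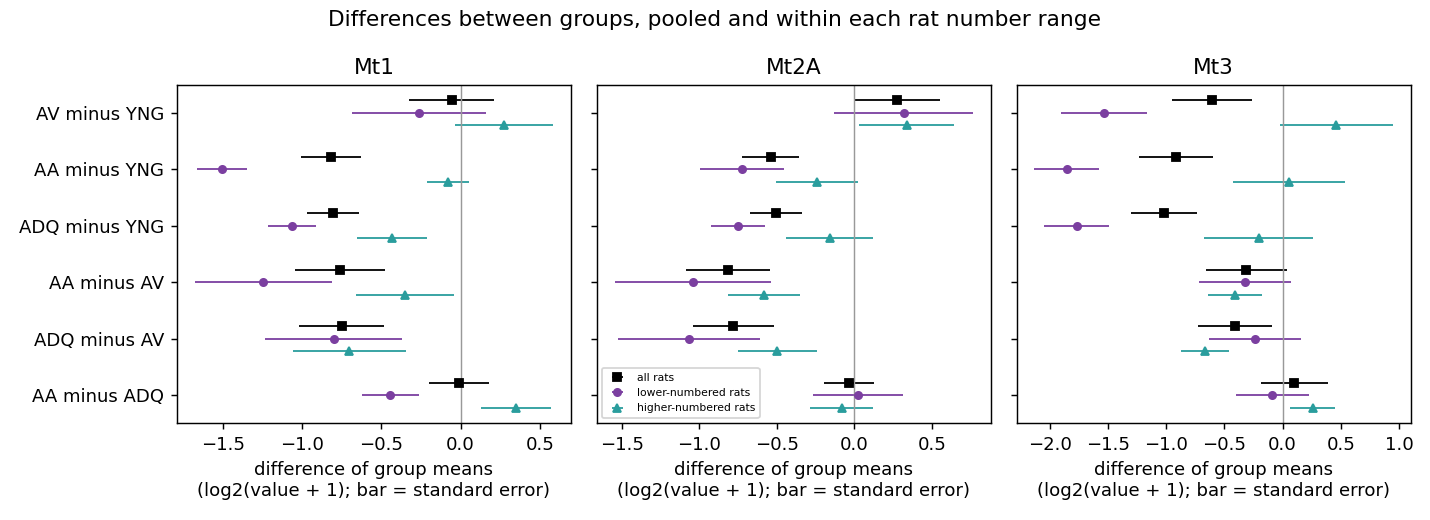
Differences of group means on the scale of log2(value + 1), with bars of 1 standard error, for all rats (black), lower-numbered rats (purple) and higher-numbered rats (green). AA and ADQ lie further below YNG in lower-numbered than in higher-numbered rats for all 3 genes, AV minus YNG changes sign between the ranges for Mt1 and Mt3, and both treated groups sit below AV for all 3 genes in either range.

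Over all rats, Mt1 and Mt2A were spread more widely in AV than in the other groups, and Mt3 was so to a lesser degree. The coefficient of variation of Mt1 was 61.2% in AV and 24.6% to 32.7% in the other groups, and that of Mt2A was 76.9% in AV and 24.9% to 30.3% in the others. For Mt3 it was 54.8% in AV and 34.1% to 49.2% in the others. Within lower-numbered rats AV was also the widest group for all 3 genes. Within higher-numbered rats this held clearly for Mt1 only. There Mt2A was at 40.3% in AV and 36.1% in YNG, and Mt3 at 32.9% in AV and 61.9% in YNG. Among higher-numbered AV rats, Mt1 was 418.5 in rat 4568 and at most 170.1 in the rest. The same spread over all genes was not computed. Counting error was far smaller, at most 13.5% for Mt1 (55 reads in the lowest rat), 9.55% for Mt2A (110 reads) and 2.75% for Mt3 (1325 reads), and this covers counting error only. Rats 3989, 3999 and 4568 were the 3 highest of all 44 in both genes. Mt1 was 310.3 in rat 3989, 349.5 in 3999 and 418.5 in 4568, and Mt2A was 1185, 635.6 and 495.4 in the same rats. Their Mt3 ranked 19, 20 and 12 of 44 over both ranges. Among the 16 older lower-numbered rats, however, 3989 (4240) and 3999 (4225) had the highest Mt3, followed by a 3rd AV rat, 3890 (3603). In the AV group, 4 rats exceeded every YNG rat in Mt1 (these 3 and rat 4009) and 3 did so in Mt2A. By group medians, which a few high rats move less, AA minus AV was -0.31 for Mt1 and -0.64 for Mt2A, and ADQ minus AV was -0.46 and -0.50 (log2). Without rats 3989 and 4107, Mt2A in AV minus YNG was 0.10, AA minus AV was -0.62 and ADQ minus AV was -0.61.

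The rows of Mt1 and Mt2A varied together over all rats and in both vehicle groups, but less so in the treated groups. Correlations were taken over deviations from the group means and are descriptions, since all genes of a rat share 1 library and its depth. Mt1 and Mt2A had Pearson's r of 0.66 and Spearman's rho of 0.62 over 44 rats, 0.62 without the 2 rats farthest from the median of Mt1, and r of 0.71 and 0.77 within the lower- and higher-numbered rats. By group, r of Mt1 with Mt2A was 0.62 in YNG and 0.83 in AV, against 0.22 in AA and 0.42 in ADQ, where it became -0.38 and -0.22 without the 2 farthest rats. With the Mt1m row, whose reads were not separable from those of Mt2A, r of Mt1 was 0.68 in YNG and 0.87 in AV. It was 0.71 in AA and 0.37 in ADQ (0.47 and -0.23 without the 2 farthest rats). The low r in AA was thus particular to the Mt2A row, and r of Mt1 with the sum of both rows was not computed. Mt1 and Mt3 had r of 0.44 over all rats (rho 0.42, 0.36 without the 2 farthest rats, and 0.55 and 0.15 within the ranges). In AA this pair had r of 0.87 (0.75 without the 2 farthest rats) and in YNG 0.71, against 0.26 in AV and 0.17 in ADQ. The value in AA includes a step between the number ranges. Mean log2(value + 1) in lower- and higher-numbered AA rats was 6.13 and 6.95 for Mt1 and 10.93 and 12.14 for Mt3. Correlations within a range of 1 group were not computed. Mt2A and Mt3 had r of 0.28 (0.68 and 0.33 within the ranges). Among 13703 other genes with a mean of at least 20, the genes most like Mt1 were Mt1m (r = 0.75), the actin-nucleation subunit Arpc1b (0.75), the leukocyte GTPase Rac2 (0.71), the peptide transporter Tap1 (0.69) and Lgals3bp (0.68). Those most like Mt2A were the chloride channel protein Clic1 (0.77), Slc43a3 (0.77), Mt1m (0.76), the urea transporter Slc14a1 (0.74) and the annexin Anxa3 (0.74). Because their reads were not separable, Mt2A and Mt1m are not 2 independent measures. Those most like Mt3 were AABR07064980.1 (r = 0.96), AABR07071891.1 (0.95), LOC679739 (0.94), LOC100361854 (0.94) and Ndufa3, a subunit of respiratory complex I (0.94).

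Respiratory chain and ribosomal protein genes moved with Mt3. Over 84 respiratory chain genes, the mean log2 level had r of 0.76 and rho of 0.69 with Mt3 (0.69 without the 2 farthest rats), with r of 0.54 in lower-numbered and 0.85 in higher-numbered rats. By group, r was 0.92 in YNG, 0.85 in AV and 0.78 in AA, but 0.03 in ADQ, whose respiratory chain scores ran only from 9.57 to 9.98. For 68 ribosomal protein genes, r with Mt3 was 0.66 (0.56 without the 2 farthest rats). These genes differed between groups in the same direction as Mt3. Of the ribosomal protein genes, 29 fell in AV, 55 in AA and 56 in ADQ relative to YNG and 0 rose, with medians of -0.44, -0.61 and -0.63 against medians over all genes of 0.00, 0.00 and 0.01. Of the respiratory chain genes, 41, 49 and 50 fell, and 2 rose, in AV. Within lower-numbered rats the median of the ribosomal genes for AV against YNG was -0.81 and within higher-numbered rats 0.08. With the ribosomal protein level as a covariate, the Mt3 differences from YNG were -0.13 for AV, -0.23 for AA and -0.32 for ADQ, and limma no longer called Mt3 in any comparison. Mt1 kept its 4 unadjusted calls in that fit but lost both adjusted calls against YNG. Mt2A kept its unadjusted calls against AV, lost those of AA and ADQ against YNG, and became called higher in AV than in YNG. Adjusted calls over all genes against YNG went from 601 to 16 for AA and from 1104 to 12 for ADQ, but only from 367 to 260 for AV. Unadjusted calls over all 15598 genes against YNG went from 3326 to 1861 for AV, 4153 to 1080 for AA and 4386 to 1112 for ADQ. The part of the ribosomal and respiratory genes in the Mt3 differences was not tested further.

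Reactive astrocyte genes were one of several lists that varied with Mt1 and Mt2A among AV rats. The 16 tested include the cytoskeletal gene Vim and the complement gene C3. Of them, 9 rose and 1 fell in AV relative to YNG, at a median of 0.53 (62.5% called, all genes 21.3%). In ADQ relative to AV 9 fell and 1 rose (median -0.46, 62.5% called, all genes 9.32%). In AA relative to AV 5 fell and 1 rose (median -0.32, 37.5% called, all genes 4.51%). None of these calls between older groups passed adjustment, and 4 of the rises in AV did. Vim rose from 406.8 ± 128.7 (SD, n = 10) among young rats to 803.6 ± 472.5 (SD, n = 12) in AV, a difference of 0.85 (log2, limma adjusted p = 0.0171). C3 rose by 1.12 (adjusted p = 0.000274) and Aspg by 0.95 (adjusted p = 0.00497). The mean level of the list ran from 5.58 to 5.96 in YNG, from 5.71 to 7.15 in AV, from 5.77 to 6.25 in AA and from 5.67 to 6.06 in ADQ. Its 2 highest values, 7.15 and 7.09, were in rats 3989 and 3999. In AV, Mt2A and this level had r of 0.89 and rho of 0.69 (n = 12; r of 0.66 without the 2 farthest rats), and Mt1 r of 0.76 and rho of 0.69. Over all rats the r for Mt2A was 0.64 and rho 0.42 (r of 0.36 without the 2 farthest rats), at 0.86 in lower-numbered and 0.14 in higher-numbered rats, so the relation rested on the lower-numbered rats.

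**Figure D4:**
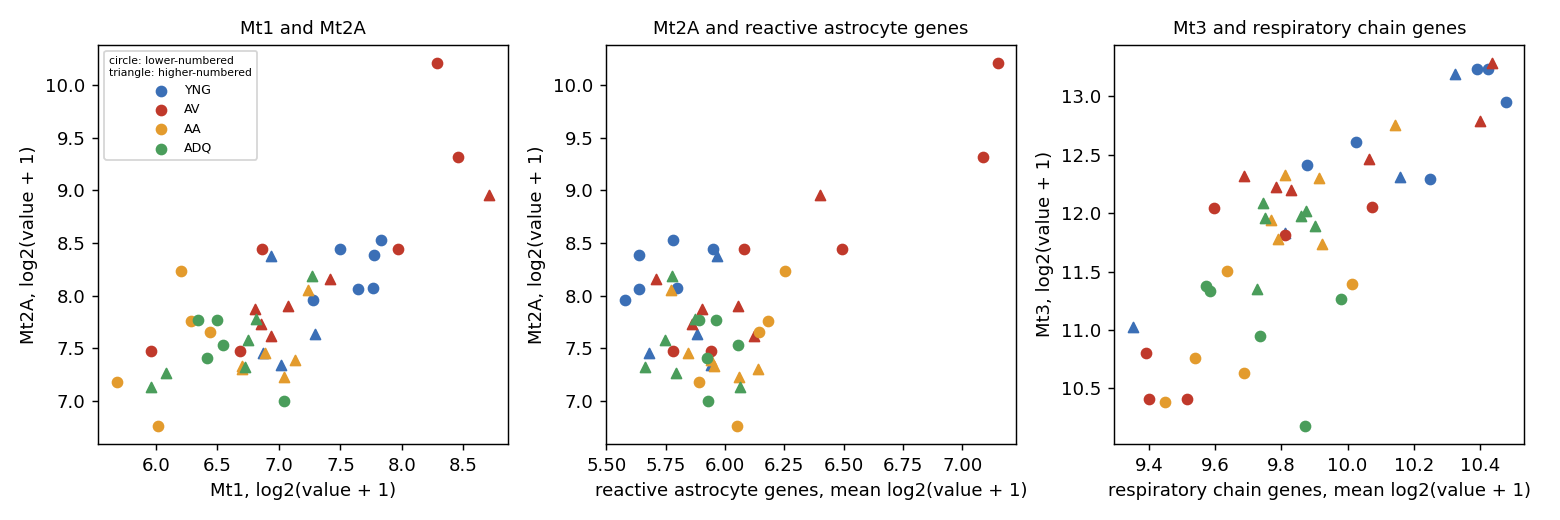
Each point is 1 rat, colored by group, with circles for lower-numbered and triangles for higher-numbered rats and all axes in log2(value + 1) or its mean over a list. Mt2A is plotted against Mt1 and against reactive astrocyte genes, where rats 3989 and 3999 stand at the upper right, and Mt3 is plotted against respiratory chain genes.

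General astrocyte markers were called at lower shares than reactive astrocyte genes in AV relative to YNG and in both treated groups relative to AV. Of 20 tested, 4 rose and 1 fell in AV relative to YNG (25%, all genes 21.3%). Relative to AV, 3 fell and 0 rose in AA (15%, all genes 4.51%) and in ADQ (15%, all genes 9.32%). Relative to YNG, 2 rose and 5 fell in AA and 1 rose and 6 fell in ADQ. That was 35% in each, against 25% of reactive astrocyte genes in each and 26.6% and 28.1% of all genes. Gfap, the astrocyte filament protein, averaged 31380 ± 10580 (SD, n = 12) in AV against 22780 ± 5317 (SD, n = 10) in YNG. The treated groups averaged 21830 ± 5289 (AA; SD, n = 11) and 20300 ± 2583 (ADQ; SD, n = 11). It was called in AV against YNG (log2 0.43, p = 0.00476, limma adjusted p = 0.0928) and in ADQ against AV (log2 -0.57, p = 0.000225, limma adjusted p = 0.134). Aqp4, the water channel of astrocyte endfeet, was not called in any comparison, with log2 values of 0.12 for AV against YNG and -0.14 for ADQ against AV. S100b was 0.45 higher in AV than in YNG (p = 0.00795, limma adjusted p = 0.113) and -0.07 in ADQ against AV (limma adjusted p = 0.922). With the astrocyte marker level as a covariate, ADQ minus AV was -0.70 for Mt1 and -0.59 for Mt2A.

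Markers of other cells also moved in these comparisons. In ADQ relative to AV, 8 of 11 microglia markers, 6 of 10 endothelial and pericyte markers, 6 of 12 oligodendrocyte markers and 5 of 5 red blood cell markers fell and 0 rose. In AA relative to AV, 2, 4, 0 and 2 of them fell. In AV relative to YNG, 4, 7, 10 and 1 of them rose. Over all genes, 9.32% were called in ADQ and 4.51% in AA relative to AV, and 21.3% in AV relative to YNG. The rises in AV differed by number range, with 2, 8, 8 and 1 in lower-numbered and 5, 1, 2 and 0 in higher-numbered rats. The endothelial and pericyte median was 0.89 in lower-numbered and -0.09 in higher-numbered rats. Shares over all genes within a range were not computed. The mean level of the red blood cell list ran from 7.37 to 12.6 in AV, with the highest value in rat 3989, and from 7.42 to 9.14 in ADQ. Microglia scores ran from 8.64 to 9.77 in AV and from 8.41 to 8.81 in ADQ. Among the 12 AV rats, the endothelial and pericyte level had r of 0.79 with Mt1 and 0.86 with Mt2A (0.73 and 0.65 without the 2 farthest rats), as close as the reactive astrocyte level. The hypoxia targets had r of 0.72 and 0.88 (0.90 and 0.84), microglia markers 0.54 and 0.78 (0.26 and 0.38), and red blood cell markers 0.54 and 0.70 (0.46 and 0.47). Rat 3989 was the highest of 44 in each of these lists. Of the 7 granule cell markers tested, 0 were called between the older groups, and 1 fell in AV relative to YNG, Calb1, a calcium-binding protein of mature granule cells (log2 -0.62, limma adjusted p = 0.0133). The part of cell makeup in the metallothionein differences was not tested.

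Zinc transporter genes were called at shares below those of all genes in the comparisons of older with young rats. Of exporters 12.5% and of importers 15.4% were called in AV against YNG (background 21.3%), and in ADQ against YNG 25% and 15.4% (background 28.1%). Of the 8 zinc exporters tested, the 1 called in AV was Slc30a3, which loads zinc into synaptic vesicles of the mossy fibers. Its mean was 5115 ± 925.4 (SD, n = 12) in AV against 6203 ± 1350 (SD, n = 10) in YNG, a log2 difference of -0.27 (p = 0.0391, limma adjusted p = 0.21), at -0.45 in lower-numbered and -0.05 in higher-numbered rats. It was also called lower in ADQ than in YNG (log2 -0.31, p = 0.0204, limma adjusted p = 0.111). Slc30a1, the plasma membrane exporter that MTF1 is known to induce, had means of 418.2 ± 48.6 (YNG; SD, n = 10), 421.2 ± 77.1 (AV; SD, n = 12), 403.9 ± 70.0 (AA; SD, n = 11) and 401.7 ± 63.5 (ADQ; SD, n = 11), and its log2 differences lay between -0.07 and 0.01. Neither treatment gave a called exporter against AV. Of the 13 importers, 1 rose and 1 fell in AV relative to YNG. In each treated group 0 rose and 1 fell relative to AV (7.69%, all genes 4.51% for AA and 9.32% for ADQ). Slc39a7, which releases zinc from the endoplasmic reticulum and Golgi, fell in AV (log2 -0.22, p = 0.017, limma adjusted p = 0.149), in AA (log2 -0.31, limma adjusted p = 0.0462) and in ADQ (log2 -0.35, limma adjusted p = 0.022) relative to YNG. The other importer called in AV was Slc39a4, a low transcript chosen after its values were seen, at 8.41 ± 5.06 (SD, n = 12) in AV against 4.63 ± 4.40 (SD, n = 10) in YNG (log2 0.98, p = 0.0173, limma adjusted p = 0.151), and it fell by 1.09 on the log2 scale in ADQ relative to AV (p = 0.00712, limma adjusted p = 0.368). Mtf1 itself averaged 158 ± 70.1 (SD, n = 12) in AV, against 119 ± 46.3 (YNG; SD, n = 10), 110.1 ± 52.3 (AA; SD, n = 11) and 116.1 ± 45.3 (ADQ; SD, n = 11). Mtf1 fell in AA relative to AV (log2 -0.56, p = 0.0347, limma adjusted p = 0.999) and was -0.42 in ADQ (p = 0.112, limma adjusted p = 0.661). The median difference of the exporters was -0.01 in AV relative to YNG and that of the importers 0.05, close to the median over all genes.

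Of 15 genes of metal sensing and copper handling, 1 rose and 3 fell in AV relative to YNG (26.7% called, all genes 21.3%). The 3 were Cox17, the copper chaperone of cytochrome oxidase (log2 -0.70, limma adjusted p = 0.0567), the metalloreductase Steap3 (-0.36, limma adjusted p = 0.0683) and the copper-zinc superoxide dismutase Sod1 (-0.40, limma adjusted p = 0.112). All 3 also fell in AA and ADQ relative to YNG. The list as a whole was called there at 20% and 26.7%, below the 26.6% and 28.1% of all genes. In ADQ the log2 differences from YNG were -0.81, -0.39 and -0.48, with limma adjusted p of 0.0223, 0.0338 and 0.0402. Cox17 in AV against YNG was -1.33 in lower-numbered rats and -0.02 in higher-numbered rats, a split like that of Mt3. The gene that rose was Cp, the copper ferroxidase of astrocytes, at 78.25 ± 47.02 (SD, n = 12) in AV against 43.97 ± 12.19 (SD, n = 10) in YNG (log2 0.68, p = 0.00219, limma adjusted p = 0.0675). Cp fell relative to AV by 0.46 on the log2 scale in both AA (p = 0.0301, limma adjusted p = 0.999) and ADQ (p = 0.0309, limma adjusted p = 0.489).

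**Figure D5:**
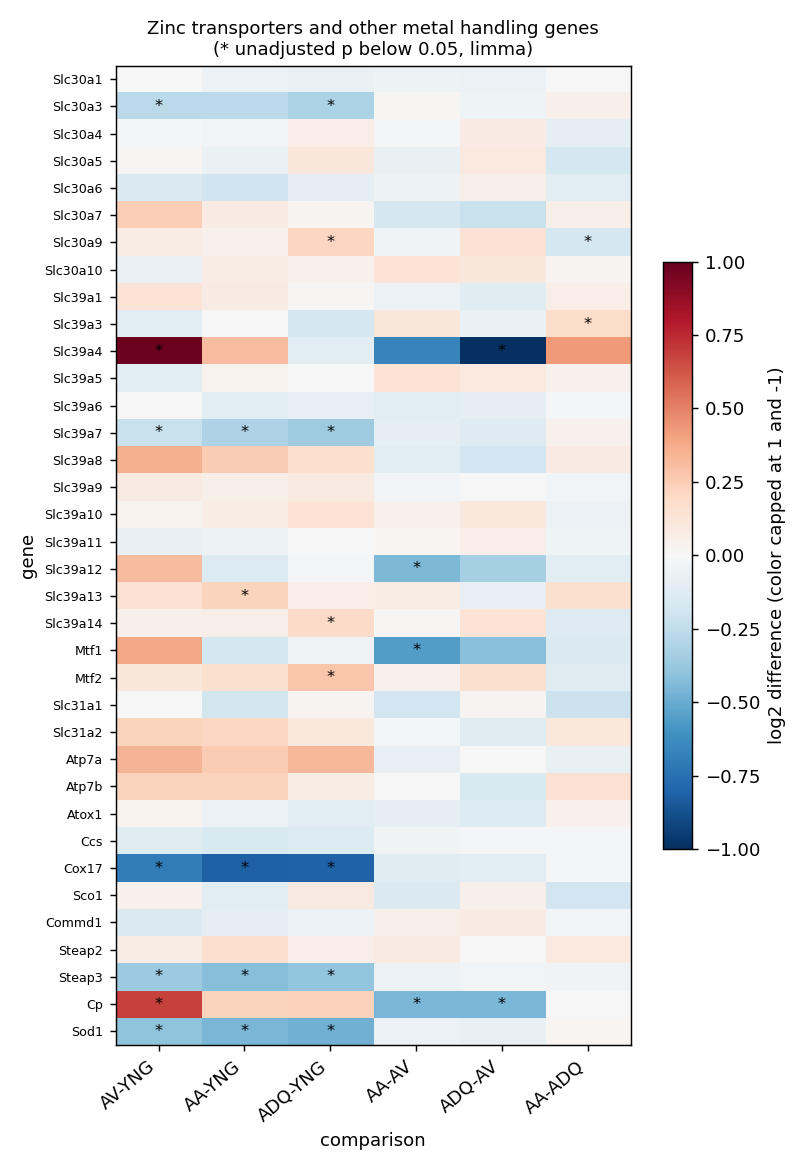
Log2 differences of zinc exporters, zinc importers and other metal handling genes (rows) in the 6 comparisons (columns), with red for higher and blue for lower in the first-named group and asterisks for an unadjusted limma p below 0.05. Cox17, Steap3 and Sod1 are lower in each older group than in YNG, and Cp is higher in AV than in the other groups.

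Gene lists of pathways known to act on Mt1 and Mt2A are given beside the share of all genes called, which was 21.3% for AV against YNG, 4.51% for AA against AV and 9.32% when ADQ was set against AV. Of 19 genes of the glucocorticoid list, 6 rose and 1 fell in AV relative to YNG (36.8% called). In AA relative to AV 1 rose and 4 fell (26.3%), and in ADQ relative to AV 0 rose and 2 fell (10.5%). Of 18 NRF2 antioxidant targets, 3 rose in AV relative to YNG (16.7%, under the background), 0 were called in AA relative to AV and 3 fell in ADQ relative to AV (16.7%), among them Hmox1, heme oxygenase, at log2 0.38 (p = 0.00835, limma adjusted p = 0.114) and -0.35 (p = 0.0134, limma adjusted p = 0.423). Of 13 hypoxia targets, 6 rose and 0 fell in AV relative to YNG (46.2%), including the glucose transporter Slc2a1 (log2 0.67, limma adjusted p = 0.00606), and 1 fell in AA and 3 in ADQ relative to AV (7.69% and 23.1%). The level of the hypoxia list had r of 0.69 and rho of 0.55 with Mt2A over 44 rats (0.55 without the 2 farthest rats, and 0.78 and 0.46 in the lower- and higher-numbered rats). By group, this r was 0.88 in AV and 0.645 in YNG, against 0.03 in AA and 0.02 in ADQ. Of 10 STAT3 and cytokine signaling genes, 3 rose and 1 fell in AV relative to YNG (40%), 0 were called in AA relative to AV and 2 fell in ADQ relative to AV (20%).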

How the data were processed

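Poly(A) RNA of the DG was sequenced on the Ion platform (the labels and the methods name different instruments of it). Per the methods, the authors aligned reads to rn6 with STAR (version 2.5.3a in the submitters' processing notes) in Partek Flow, and used DESeq2; the annotation is not given in the sources used here. The authors deposited signal values, in which each library's reads were divided by its median ratio factor. The value of 1 read in each library was taken as its most common value above 0, and 81.2% of the values of the tested genes were whole reads (within 0.05), too few for a count model.

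The 24694 rows were summed to 18347 identifiers. Each member has 1 row. Genes with a mean of at least 5 were fitted as log2(value + 1) with limma 3.58.1 (trend) in R 4.3.3, 4 groups in 1 fit, 6 contrasts, two-sided, with calls at an unadjusted p of 0.05, and p-values were also adjusted by Benjamini-Hochberg. The p-values measure the spread between rats. The fit was tested on simulated data. Correlations used scipy 1.17.1, tables pandas 2.3.3 and numpy 2.4.6, and plots matplotlib 3.10.9, in Python 3.11.15. The treatment of each rat was read from the authors' attribute list.

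The members, gene lists and rat number ranges were chosen with earlier results of these data known. Named genes are the family, the 3 smallest p of a list in AV against YNG (mean at least 20), metal genes with an adjusted p below 0.05, the 5 genes most like each member, and Gfap, Aqp4, S100b, Slc30a1, Slc30a3 and Mtf1. Some of these are printed for each list. Alternatives were other pseudocounts, filters, scalings, covariates, row choices, medians and rats left out.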

Additional observations from a re-analysis of the deposited data

Results flagged for a closer look

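Mt4, the family member of squamous epithelia, did not pass the filter on low values and entered no comparison, yet its highest library held 6 reads (rat V4, YNG), more than the 3 reads that a count of 0 allows. It was above 3 reads in 6 of 44 rats (3 YNG, 2 AV, 1 AA and 0 ADQ) and at 0 in 17. No difference between groups can be read at this depth.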

How the results depend on the processing

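Over 13 alternatives for the members, 215 of 222 values stayed within 1 SD (between rats, within groups) of the reported difference. That margin is wide. The Mt3 differences from YNG with the ribosomal protein level as a covariate fell within it, although limma no longer called Mt3. The values outside it came from splitting the rats by number, and the cause was not tested. In lower-numbered rats, Mt1 in AA minus YNG was -1.51, Mt3 in AV minus YNG -1.53 and Mt3 in AA minus YNG -1.85 (log2). In higher-numbered rats these were -0.079, 0.46 and 0.052, so both Mt3 values changed sign from the pooled -0.61 and -0.92, and Mt3 in ADQ minus YNG was -0.21. With 1 rat left out, all 396 values stayed within 1 SD. Leaving 1 rat out of a group of 10 to 12 can hardly move a mean that far, so nothing is read from that count. With the ribosomal protein level as a covariate, the number of genes called against YNG went from 3326 to 1861 for AV, from 4153 to 1080 for AA and from 4386 to 1112 for ADQ. How many genes were called in both fits was not counted. Upper quartile scaling changed the split of AV against YNG to 2011 higher and 1283 lower from 1651 and 1675. With the rat number range as a covariate, 126 of 132 list counts were within 1.5 times. No paired analysis was possible because the rats share no replicate numbers between groups. Adding the Mt2A and Mt1m rows and leaving out rats 3989 and 4107 were chosen after seeing the data. Depth limits Mt4 alone among the genes of the family.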
